A study of Macaca mulatta with 24 samples.

Results

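The outer parvocellular layers of the lateral geniculate nucleus (LGN), layers 5 and 6, were set against the inner parvocellular layers, 3 and 4. Layer number and cell class came from the sample labels and the layer scheme of the methods, and 16 of 24 arrays belong to the comparison: 8 from outer and 8 from inner layers, with 8 magnocellular arrays used only to describe levels. Each array measured 1 layer of 1 LGN, cut by laser capture microdissection (LCM) from pooled toluidine blue sections so that koniocellular zones were left out, and every layer of 4 LGNs was taken. The LGNs came from 2 rhesus monkeys (Macaca mulatta) deprived of vision in the left eye from birth, 1 for 2 months by an opaque contact lens and 1 for 4 months by tarsorrhaphy, so that duration, animal and method cannot be told apart. No LGN of a normally reared monkey was analysed here.

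In the LGN ipsilateral to the deprived eye, layers 5 and 3 were deprived and layers 6 and 4 were not. In the contralateral LGN, layers 6 and 4 were deprived and layers 5 and 3 were not. Outer and inner groups therefore each held 4 deprived and 4 nondeprived layers, 2 layers of each LGN, and the same eye drove layers 6 and 4 (the crossed input) or layers 5 and 3 (the uncrossed input). This gave 8 same-eye pairs, each an outer and an inner layer of 1 LGN. The regions of an LGN share an animal, so that the p-values measure the spread among layers within 4 LGNs and are too small as to animals.

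Parvocellular relay cells receive the small-field, colour-opponent output of midget ganglion cells and send it to layer 4C of visual cortex. The outer, dorsal pair and the inner, ventral pair repeat the same map for the same eyes. In macaques the outer pair is known to hold mostly cells excited by light onset, and the inner pair mostly cells excited by light offset. The magnocellular layers lie below, with larger cells that receive parasol input.

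No probe set differed between outer and inner layers past an adjusted p of 0.05 in limma when each LGN was a block and deprivation status a covariate. Of 37623 probe sets tested, 0 were called higher (0%) and 0 lower (0%) in outer layers, and the smallest adjusted p was 0.145. Before adjustment, 3377 probe sets (8.98%) had a p under 0.05, of which 420 (1.12%) read higher and 2957 (7.86%) lower in outer layers. The 8 outer and the 8 inner arrays did not overlap in 6 of all 37623 probe sets (0.0159%). The same 16 arrays and the same model gave 223 probe sets higher and 149 lower in deprived than in nondeprived layers (0.989% of those tested), with a smallest adjusted p of 1.85e-05. Layers of crossed input against layers of uncrossed input gave 0 calls in limma, with 1030 probe sets at an unadjusted p under 0.05.

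The intervals show what size of difference the arrays could hold. Among the 4838 brightest probe sets (2000 or more on average), the median half-width of the 95% interval was 0.24 on the log2 scale, and 99.9% of the intervals lay within a 2-fold difference in either direction. Among 7191 probe sets with a mean between 500 and 2000, 99.3% did so, and among 11287 between 100 and 500, 87.6% did. Between 50 and 100 the share was 41.6% of 8191, and below 50 it was 5.67% of 6116. A 2-fold difference between outer and inner layers was thus outside the interval for nearly all bright transcripts, whereas differences of that size were not resolved for dim ones. Of 23316 probe sets with a mean of 100 or more, 71 had an estimate beyond 2-fold.

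**Figure D1:**
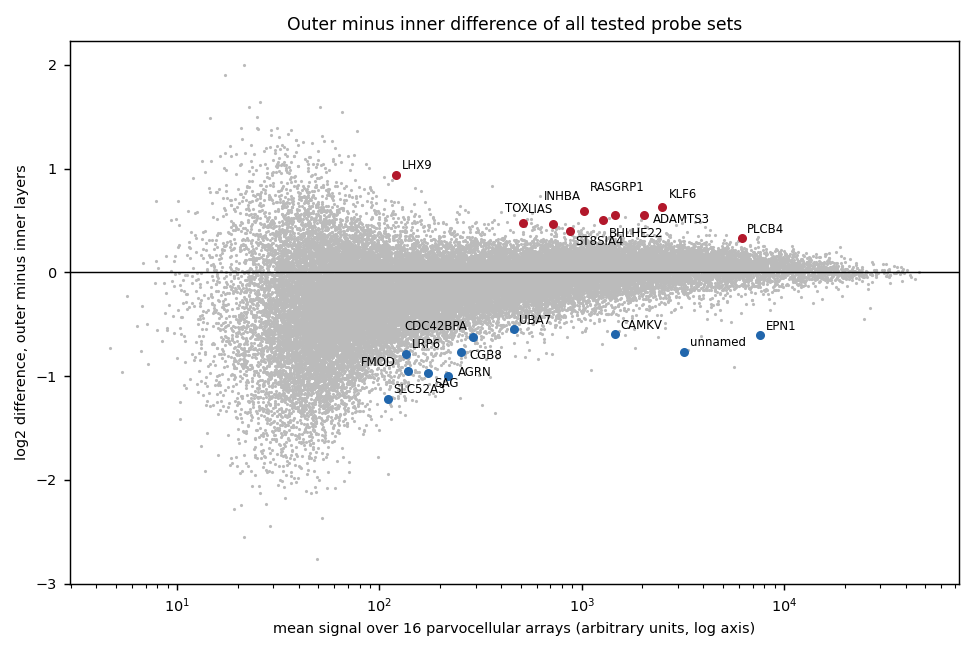
Log2 difference between outer and inner layers (y) against the mean signal over the 16 parvocellular arrays (x, log axis, arbitrary units) for the 37623 tested probe sets (grey). Coloured points are the 20 highest ranked genes (red higher, blue lower in outer layers) and the unnamed probe set with the smallest p; none passed an adjusted p of 0.05, and the cloud narrows as the signal increases.

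The direction of the small differences depended on brightness. As deposited, 74.3% of the probe sets with a mean under 50 read lower in outer layers, against 31.1% of those with a mean of 2000 or more; the medians were -0.37 and 0.05. The share of probe sets with a signal of 100 or more moved with this: it had a median of 42.2% (40.6 to 46.5) in outer arrays and 44.6% (41.8 to 53) in inner arrays, and was lower in the outer layer in 7 of 8 same-eye pairs (mean difference -3.93 percentage points, exact permutation test over all swaps within pairs, two-sided p = 0.0156, adjusted p = 0.0625 over 4 array measures). The median signal per array was 68.3 (60.5 to 84.9) in outer and 79.4 (62.7 to 112) in inner arrays (exact permutation p = 0.0312, adjusted p = 0.0625; smallest p that the swaps can give 0.0078125). Layers 3 and 4 of the contralateral LGN at 2 months had the highest shares, 53% and 52.9%. The ratio of 3' to 5' GAPDH signal, a measure of RNA length, had a median of 4.82 in outer and 4.87 in inner arrays (exact permutation p = 0.844). The same ratio for actin had a median of 158 in outer and 113 in inner arrays (exact permutation p = 0.805, adjusted p = 0.844). It was 2148 and 2779 in layers 3 and 4 of the contralateral LGN at 2 months, the arrays with the highest detected shares, against 72.7 to 1068 in the other 14 arrays.

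The split of directions moved with the scaling. Of the probe sets with an unadjusted p under 0.05, 87.6% read lower in outer layers as deposited, 52.4% after quantile normalization and 15.5% when arrays were scaled to equal medians. The median difference of all tested probe sets was -0.10, 0.008 and 0.11 in these 3 settings. With the detected share of each array as a covariate, which was added after the data were seen, it was -0.01 and 54.7% read lower. Without the contralateral LGN at 2 months, 72.4% read lower as deposited. All of these settings gave 0 calls at an adjusted p of 0.05. The balance of lower and higher values in outer layers is therefore given only as a property of the scaled arrays. With the detected share as a covariate, single values moved in both directions: LHX9, described next, had a log2 difference of 1.25 with it and 0.94 without it, KLF6 0.38 and 0.63, AGRN -1.19 and -0.999, and FMOD -0.67 and -0.95.

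**Figure D2:**
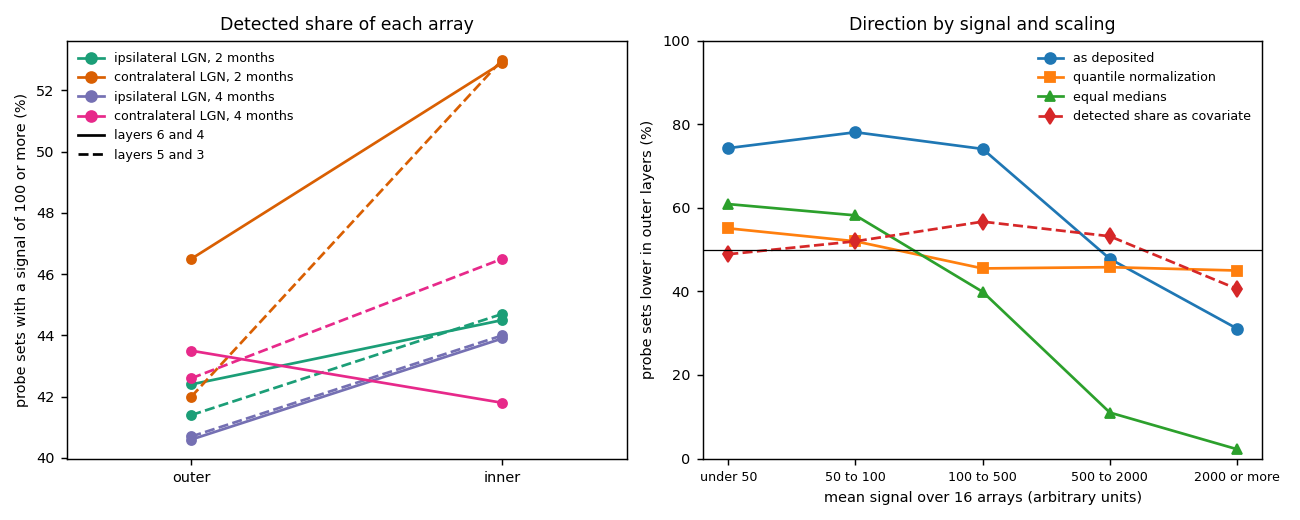
Left, percent of probe sets with a signal of 100 or more in each array (y), outer layers left and inner layers right, with lines joining the 8 same-eye pairs; 7 of 8 lines are lower at the outer end. Right, percent of probe sets that read lower in outer layers (y) by mean signal (x) under 4 settings; with the deposited signals the share is 74.3% below a signal of 50 and 31.1% at 2000 or more, and with equal medians 2.23% at 2000 or more.

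The genes described next head the ranking by p among those with 1 gene symbol, an average of at least 100 in outer or in inner layers and 1 direction throughout the 4 LGNs, with 10 in each direction. They were chosen by this same contrast, so that their p-values and their shared direction are a description and support nothing. All 20 had an adjusted p of 0.521 in limma. Levels are signals in arbitrary units as deposited, given as lowest, median and highest array; a layer with fewer cells of a type and a layer with less RNA per cell cannot be told apart in them.

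Transcription factors headed the genes that read higher in outer layers. LHX9 (MmugDNA.811.1.S1_at), a LIM-homeobox factor of the developing thalamus in mice, had 73.7, 146 and 283 in outer layers and 61.2, 78.2 and 116 in inner layers. The outer array was the higher in 8 of 8 pairs, although the ranges overlapped, the lowest outer array being layer 6 of the contralateral LGN at 2 months. The log2 difference was 0.94 (SE 0.225, 95% interval 0.47 to 1.41), and the layer means were 194 in layer 6 and 134 in layer 5, against 74.2 in layer 4 and 84.8 in layer 3. BHLHE22, a basic helix-loop-helix factor of neuronal identity in mouse retina and cortex, had 352, 1348 and 2933 in outer and 301, 968 and 1857 in inner layers. All parvocellular arrays of the 2-month animal were below those of the 4-month animal, and within every LGN the outer mean was the higher (log2 differences of 0.47, 0.64, 0.56 and 0.34). KLF6 and TOX, a zinc-finger factor and an HMG-box factor, had log2 differences of 0.63 (SE 0.166) and 0.48 (SE 0.13). TOX has another probe set, at 0.46, and KLF6 has 5 others, which ranged between -0.14 and 0.52.

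The other 6 were secreted proteins, signaling proteins and enzymes. INHBA, the subunit of activin A, had 640, 1163 and 2178 in outer and 368, 732 and 1400 in inner layers (log2 difference 0.59, SE 0.15). Every pair had the higher value in its outer layer and the groups overlapped; a dimmer INHBA probe set had a log2 difference of 0.05. ADAMTS3, a protease of procollagen, had 1195, 2374 and 3260 in outer and 758, 1874 and 2647 in inner layers, a log2 difference of 0.55 (SE 0.14). ST8SIA4, which adds polysialic acid to neural cell adhesion molecule, had 695, 1001 and 1432 in outer and 549, 729 and 1038 in inner layers. Its log2 difference was 0.40 (SE 0.10), while its other probe sets had 0.05 and 0.09. RASGRP1, an exchange factor for Ras, had 0.55, and PLCB4, the phospholipase C that acts below metabotropic glutamate receptors, had 0.33 with 4200, 7441 and 8741 in outer and 4089, 5360 and 6761 in inner layers. LIAS, the lipoic acid synthetase of mitochondria, had 0.47, and 0.35 on its other probe set. PLCB4 was the brightest of the 10 and had the narrowest interval, 0.13 to 0.53.

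The magnocellular arrays, which did not enter the ranking, placed most of these genes lower still. The magnocellular mean was below the inner mean in 8 of the 10 genes, the exceptions being PLCB4 and LIAS. This order was not particular to genes higher in outer layers. Among the 10 genes that read lower there, described below, the magnocellular mean was above the inner mean in 2 and above the outer mean in 10. The share over all probe sets was not counted. BHLHE22 averaged 1488 ± 1058 in outer, 1066 ± 764 in inner and 209 ± 156 in magnocellular layers (SD, n = 8 each). ADAMTS3 averaged 2365, 1688 and 528 in outer, inner and magnocellular layers, and INHBA 1226, 831 and 397. LHX9 was alike in inner and magnocellular layers, with means of 79.5 ± 17.5 and 73.4 ± 23.2 (SD, n = 8 each), while its outer mean was 164 ± 74.9 (SD, n = 8). No test was made of these 3-way orders.

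**Figure D3:**
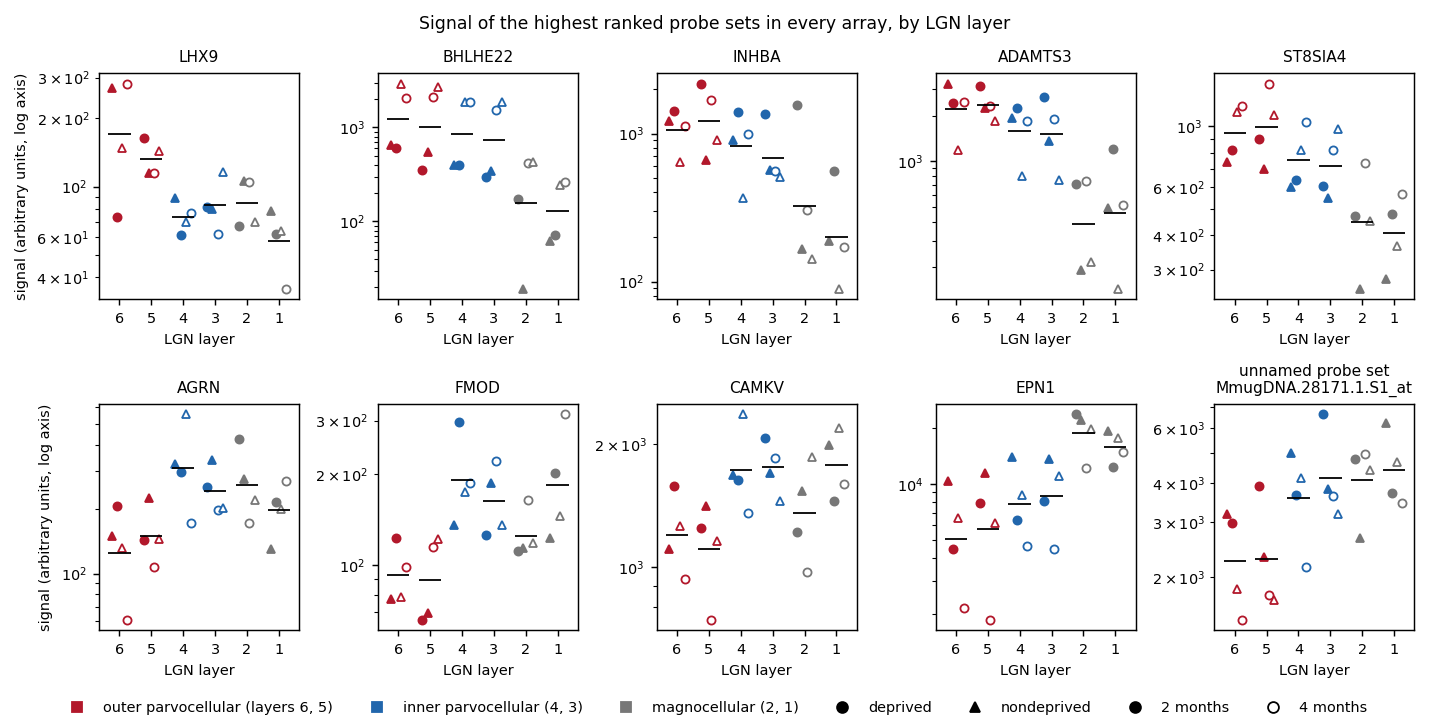
Signal in each of the 24 arrays (y, log axis, arbitrary units) by LGN layer (x), from outer parvocellular layers 6 and 5 (red) over inner parvocellular layers 4 and 3 (blue) to magnocellular layers 2 and 1 (grey). Circles are deprived and triangles nondeprived layers, filled symbols 2 months and open symbols 4 months, and bars are the geometric mean of the 4 arrays of a layer. BHLHE22, INHBA, ADAMTS3 and ST8SIA4 step down towards the magnocellular layers, and the 8 outer arrays of FMOD all lie below the 8 inner ones.

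Of the 10 genes that read lower in outer layers, 2 encode proteoglycans. AGRN (MmuSTS.733.1.S1_at), agrin, which organizes acetylcholine receptors at the neuromuscular junction, had 60.8, 145 and 225 in outer and 172, 276 and 553 in inner layers. It was lower in the outer layer of 8 of 8 pairs, with an overlap of the groups between 172 and 225 and a log2 difference of -0.999 (SE 0.20, 95% interval -1.42 to -0.58). FMOD, fibromodulin, a small leucine-rich proteoglycan of collagen matrix, had 66.1, 88.7 and 123 in outer and 126, 181 and 298 in inner layers. Its groups did not overlap, as in 0.0159% of all probe sets, and its log2 difference was -0.95 (SE 0.20). Both genes were dim, in the range of signals where most probe sets read lower in outer layers.

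Brighter genes on this side act in endocytosis and calcium signaling. EPN1, epsin 1, an adaptor of clathrin-coated pits, had 1848, 6371 and 11485 in outer, 4436, 8407 and 13996 in inner and 12241, 18512 and 23751 in magnocellular layers, so that the outer and inner ranges overlapped and the magnocellular median was the highest. The log2 difference of outer and inner layers was -0.60 (SE 0.14); the other EPN1 probe sets had -0.82, -0.04 and 0.36. CAMKV, a kinase-like protein of calmodulin signaling found at synapses, had 744, 1200 and 1574 in outer and 1358, 1690 and 2360 in inner layers, a log2 difference of -0.59 (SE 0.14). CAMKV overlapped between the groups only from 1358 to 1574, and its magnocellular median was 1563.

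For 5 of the other 6 genes the probe sets of a gene did not give 1 value. UBA7, the activating enzyme of the ubiquitin-like ISG15, had a log2 difference of -0.55 on 1 probe set, whereas its 4 brighter probe sets ranged between -0.09 and 0.09. LRP6, a co-receptor for Wnt, had -0.78 on a dim probe set with medians of 100.1 in outer and 152 in inner layers, and 0.09 on a bright one with 5996 in outer and 5742 in inner layers. CDC42BPA, a kinase of the actin cytoskeleton, had -0.62, with 3 brighter probe sets between -0.14 and 0.13. CGB8, a beta chain of chorionic gonadotropin, had -0.76 against 0.11 on a brighter probe set. SLC52A3, a riboflavin transporter, had -1.22, with medians of 72.4 in outer and 131 in inner layers, and 0.18 on another dim probe set, and SAG, the arrestin of rods, had -0.97 with medians of 103 in outer and 227 in inner layers. These values belong to single probe sets and not to the genes.

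The smallest p of all belonged to a probe set to which the annotation used here gives no gene, MmugDNA.28171.1.S1_at. It had 1462, 2080 and 3931 in outer, 2157, 3756 and 6645 in inner and 2680, 4557 and 6218 in magnocellular layers. The outer layer was lower in 8 of 8 pairs, and the log2 difference was -0.77 (SE 0.12, 95% interval -1.01 to -0.52, adjusted p = 0.145). Its difference was between -1.12 and -0.51 in the 4 LGNs. Without layer 6 of the contralateral LGN at 2 months its adjusted p was 0.0339, and it was then the only probe set called.

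Cell type markers were read for what a layer could hold beside relay cells. MBP, a myelin protein, had 28812, 35359 and 47004 in outer and 27947, 35190 and 40689 in inner layers, a log2 difference of -0.005 (95% interval -0.22 to 0.21). The 16 measured oligodendrocyte and myelin genes had a summed signal of 82765 to 114000 in outer and 85116 to 121710 in inner layers. Of these, 8 were positive and 8 negative, CD9 having a log2 difference of 0.49 and SOX10 -0.40. The 6 oligodendrocyte precursor genes summed to 4091 to 6667 in outer and 3581 to 8166 in inner layers. GFAP, the astrocyte filament, had a median of 3880 in outer and 3818 in inner layers (log2 difference 0.05, interval -0.41 to 0.50) and reached 13219 in an outer and 12511 in an inner array. The 13 astrocyte genes summed to 77847 to 112070 in outer and 84558 to 119330 in inner layers, and 15 microglia genes to 7794 to 10439 in outer and 6739 to 11038 in inner layers. HBB, the beta globin of blood, was near background, with medians of 84.5 in outer and 115 in inner layers. The 5 koniocellular markers summed to 14521 to 19593 in outer and 15325 to 18692 in inner layers, and 2 of them were below 100 in all 16 arrays. Their median log2 difference was -0.21 as deposited and -0.03 after quantile normalization. No marker of these classes passed the test, and all list ranges of outer and inner layers overlapped.

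Among neuronal markers PVALB, NEFH and CRH gave intervals around 0, whereas those of GAD1 and FOXP2 lay below it before adjustment. That of ENO2, from the list of neuron markers, lay above 0 before adjustment (0.01 to 0.44, adjusted p = 0.541 from limma). Of the 9 measured genes of that list 3 were positive and 6 negative, with a median of -0.02. PVALB, the calcium buffer parvalbumin, which relay cells of parvocellular and magnocellular layers contain, had medians of 22188 in outer and 18542 in inner layers (log2 difference 0.13, interval -0.15 to 0.41). NEFH, the heavy neurofilament chain, had 26039 in outer, 26790 in inner and 38619 in magnocellular layers (medians), and its outer minus inner difference was -0.02 (interval -0.23 to 0.19). The 6 magnocellular markers summed to 54535 to 67678 in outer and 43881 to 86945 in inner layers. GAD1, the enzyme that makes GABA, had 8778, 10679 and 14042 in outer, 8912, 13873 and 15621 in inner and 14203, 16170 and 24134 in magnocellular layers. It was lower in the outer layer of 7 of 8 pairs, with a log2 difference of -0.24 (interval -0.46 to -0.03, unadjusted p = 0.0306, adjusted p = 0.527 from limma). GATA3, a factor of GABAergic neurons of mouse thalamus and midbrain, had -0.37, and 7 of 9 genes of the GABAergic list were negative, beside 64.4% of all probe sets. The median of that list was -0.24 as deposited, -0.19 after quantile normalization and -0.03 with equal medians. Lists of other cell types leaned alike as deposited: 11 of 15 microglia genes were negative with a median of -0.24, and 12 of 14 endothelial and pericyte genes with a median of -0.14, NOTCH3, a receptor of pericytes, having -0.39. After quantile normalization the medians of microglia and of endothelial and pericyte genes were -0.07 and -0.08. FOXP2, a factor of thalamic neurons, was dim, with medians of 60.9 in outer and 96.7 in inner layers, and had a log2 difference of -1.28 (interval -2.14 to -0.43, unadjusted p = 0.00544, adjusted p = 0.521 from limma). It was -2.40 and -2.67 in the LGNs at 2 months and -0.06 and -0.006 in those at 4 months, and with the detected share as a covariate -0.56. Of the 6 measured thalamic relay neuron markers, 4 were positive and 2 negative. Their median was 0.04 as deposited, 0.03 after quantile normalization and 0.25 with equal medians. CRH, corticotropin-releasing hormone, had medians of 1660 in outer and 1776 in inner layers and a log2 difference of -0.07 (interval -0.30 to 0.17). AQP4, SLC17A6 and CALB1 were not analysed here.

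Genes of the synapse and of excitability were then taken as lists, with 0 members called in any of 35 lists. These lists were drawn up with earlier results of the series known. As deposited, 28 of 35 lists had a median below 0. The count was 23 after quantile normalization, 16 with the detected share as a covariate and 6 with equal medians. The median of all probe sets was -0.10 as deposited, but a list uses the brightest probe set of a gene. By mean signal, the median was -0.145 between 100 and 500, 0.009 between 500 and 2000 and 0.05 at 2000 or more. At an unadjusted p under 0.05 in limma, 56 of 11287 probe sets between 100 and 500 read higher and 1193 lower. At 2000 or more, 137 of 4838 read higher and 39 lower. List medians and shares are therefore to be read against probe sets of like brightness. Of 25 voltage-gated potassium channel genes, 8 were positive and 17 negative, with a median of -0.11 that turned to 0.08 after quantile normalization and 0.10 with equal medians. KCNIP2, a partner of A-type channels, and KCNC4, a fast delayed rectifier of the Kv3 class, had log2 differences of -0.51 and -0.39 and were each lower in the outer layer of 8 of 8 pairs. At an unadjusted p under 0.05, 4 members of the list were lower and 3 were higher, beside 7.86% and 1.12% of all probe sets. The 3, chosen after their values were seen, were KCNK1, a 2-pore channel, with a log2 difference of 0.33, KCNS2, a modifier of Kv2 channels, with 0.30, and DPP10, a partner of Kv4 channels, with 0.23. Of 11 calcium and HCN channel genes 10 were negative, with a median of -0.25 as deposited, -0.16 after quantile normalization and -0.04 with equal medians. Its member CACNB3, a calcium channel subunit, had 244, 378 and 770 in outer and 349, 485 and 917 in inner layers (-0.47, SE 0.15).

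Transmitter receptors and vesicle genes gave the same picture of small values. GRIA1, an AMPA receptor subunit, had medians of 369 in outer and 416 in inner layers (-0.43, SE 0.16), and the 7 glutamate receptor genes had a median of -0.15 as deposited, -0.004 after quantile normalization, 0.06 with equal medians and -0.27 with the detected share as a covariate. Of 9 GABA and glycine receptor genes 7 were negative, with a median of -0.12 as deposited, 0.09 with equal medians and -0.22 with the detected share as a covariate. None of the 9 had an unadjusted p under 0.05, beside 8.98% of all probe sets, a share that comes to less than 1 gene in a list of this size. SV2C, a synaptic vesicle glycoprotein, had 151, 377 and 747 in outer, 244, 719 and 1050 in inner and a median of 282 in magnocellular layers. It was lower in the outer layer of 8 of 8 pairs (log2 difference -0.67, SE 0.195), and its ranges overlapped widely. SYNPR, synaptoporin of vesicle membranes, had 8409 in outer and 10539 in inner layers (medians; -0.23, SE 0.11). The 13 vesicle genes had a median of -0.18 as deposited and 0.03 with equal medians.

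Guidance and adhesion molecules, which shape layers in development, also held no call. Of 29 semaphorin, slit and netrin genes and their receptors, 8 were positive and 21 negative, and 5 had an unadjusted p under 0.05, all of them negative, beside 7.86% of all probe sets. The list had the lowest median of the 35, -0.29 as deposited, -0.12 after quantile normalization and -0.08 with equal medians. ROBO2, a slit receptor, had medians of 111 in outer and 197 in inner layers (log2 difference -0.90, SE 0.24), and RGMA, a repulsive guidance molecule, 659 in outer and 907 in inner layers (-0.42, SE 0.145). Of 18 ephrins and their receptors, 5 were positive and 13 negative, with 2 of each direction at an unadjusted p under 0.05. The list median was -0.16 as deposited, 0.03 after quantile normalization, 0.05 with equal medians and 0.11 with the detected share as a covariate. EPHB6, a receptor without kinase activity, was dim, with 5.49, 83.4 and 188 in outer and 30.8, 130 and 292 in inner layers. It was lower in the outer layer of 7 of 8 pairs (log2 difference -1.21, SE 0.385, adjusted p = 0.521). The receptor EPHA5 had 3326, 4051 and 5154 in outer and 2666, 3181 and 4131 in inner layers. EPHA5 was higher in the outer layer of 8 of 8 pairs, with a log2 difference of 0.29 (SE 0.10, adjusted p = 0.521). Of 37 cadherin and adhesion genes, 16 were positive and 21 negative; CDH13, a cadherin without a cytoplasmic domain, had 289, 439 and 664 in outer and 414, 718 and 912 in inner layers (-0.61, SE 0.17). IGF1, insulin-like growth factor 1, had medians of 1267 in outer and 2216 in inner layers (-0.55, SE 0.17), lower in the outer layer of 7 of 8 pairs.

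The highest list medians were those of activity-regulated genes and transcription factors. Of 35 transcription factors of the thalamus and of cell identity, 21 were positive and 14 negative. The median was 0.05 as deposited, 0.06 after quantile normalization and 0.26 with equal medians. It was -0.005 and -0.04 in the ipsilateral and contralateral LGN at 2 months and 0.03 and 0.18 in those at 4 months. In the positive direction 4 had an unadjusted p under 0.05, against 1.12% of all probe sets, and 2 in the negative direction. LHX9 and BHLHE22, members of this list, were themselves chosen by this same contrast. Of 23 immediate early and activity-regulated genes, 15 were positive, with a median of 0.14 as deposited, 0.19 after quantile normalization and 0.35 with equal medians. That median was -0.08 when all probe sets of a gene were averaged. Within LGNs the list had 0.25 and 0.06 in the ipsilateral and contralateral LGN at 2 months and -0.12 and 0.11 in those at 4 months. KLF10, a zinc-finger factor, had 615, 939 and 1674 in outer and 407, 758 and 1488 in inner layers and was higher in the outer layer of 8 of 8 pairs (0.34, SE 0.12).

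Housekeeping pathways had medians near 0. Of 54 genes of oxidative phosphorylation, 32 were positive and 22 negative, the median was 0.006, and 53 of the intervals lay within a 2-fold difference. The 30 cytosolic ribosomal protein genes had a median of 0.007, and all 30 intervals lay within a 2-fold difference. With equal medians these lists were at 0.21 and 0.22. Of 13 glycolysis genes, 3 were positive and 10 negative, with a median of -0.04. Of 15 heat shock and hypoxia genes, 7 were positive and 8 negative. ENO2, the neuronal enolase, had medians of 1571 in outer and 1334 in inner layers (0.22, SE 0.10), and MT1X, a metallothionein, 1431 in outer and 1263 in inner layers (0.25, SE 0.096). Other members read lower in outer layers: ATP5MC2 of oxidative phosphorylation had -0.48 (SE 0.13), PFKL of glycolysis -0.435 (SE 0.17) and the ribosomal RPS9 -0.23 (SE 0.095).

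**Figure D4:**
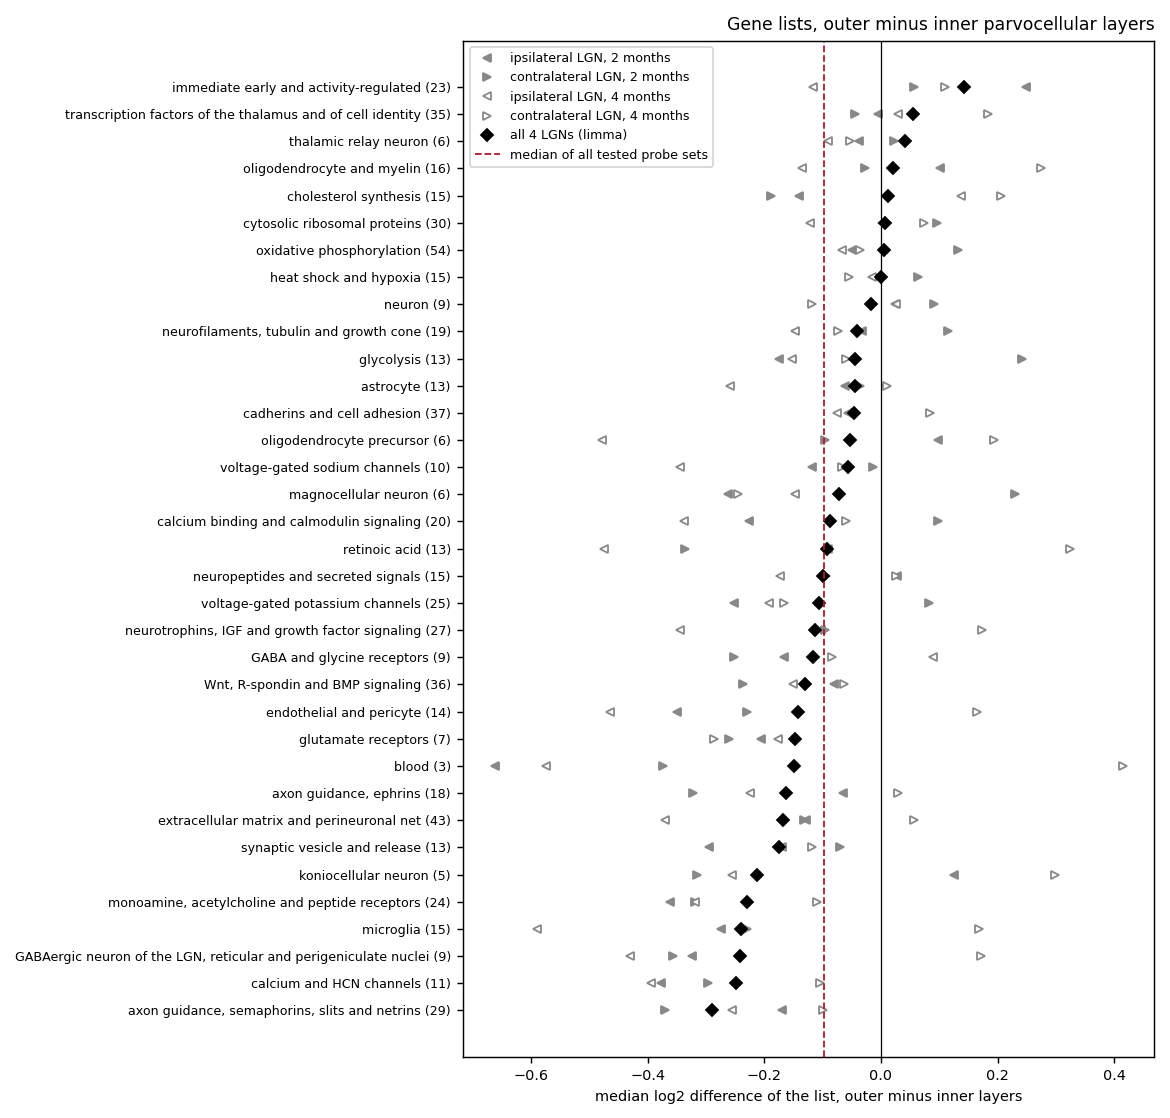
Median log2 difference between outer and inner layers (x) of the measured genes of 35 lists (number of genes in brackets), from the fit over all 4 LGNs (black) and within each LGN (grey). Lists ranged between -0.29 and 0.14 around the median of all tested probe sets, -0.10 (dashed); with equal medians across arrays 6 of 35 medians, against 28 as deposited, lay below 0.

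The 4 LGNs were also compared with each other across the array. Correlations between LGNs were taken over the probe sets with a mean of 100 or more. The outer minus inner differences of 2 LGNs correlated with r between -0.23 and 0.27 over the 6 possible pairs. The deprived minus nondeprived differences correlated with r between 0.0016 and 0.31. Probe sets are not independent, so that these values are a description. Of probe sets with a mean of 100 or more, 12.5% had the same direction of the outer minus inner difference in 4 of 4 LGNs. For the deprived minus nondeprived difference the share was 25.1%. Independent signs of equal odds would agree in 4 of 4 LGNs at a share of 12.5%.

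The difference between outer and inner layers was also tested for its dependence on deprivation, animal and eye. The genes named for an interaction were chosen by that same interaction, so that their patterns are a description and support nothing. Against deprivation, 0 interactions passed in limma (smallest adjusted p 0.965; 1494 at an unadjusted p under 0.05). SAP30BP, a transcriptional regulator, had the smallest p of the genes listed for this interaction, although other probe sets had smaller ones. SAP30BP averaged 1443 ± 239 in outer and 889.9 ± 345 in inner deprived layers (SD, n = 4 each). In nondeprived layers it averaged 647 ± 201 in outer and 992 ± 150.3 in inner layers (SD, n = 4 each). Its adjusted p was 0.965. No probe set here distinguished the outer minus inner difference of deprived layers from that of nondeprived layers.

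Between the 2 animals, 0 interactions passed, with a smallest adjusted p of 0.187 and 3252 at an unadjusted p under 0.05. ZNF177, a zinc-finger protein, averaged 795 ± 56.3 in outer and 452 ± 36.3 in inner layers at 2 months, but 761 ± 116 in outer and 967 ± 148 in inner layers at 4 months (SD, n = 4 each). ZNRF2, a ubiquitin ligase, had the opposite arrangement, with 3034 ± 507 in outer and 4832 ± 784 in inner layers at 2 months and 3526 ± 938 in outer and 2534 ± 415 in inner layers at 4 months (SD, n = 4 each; adjusted p = 0.187). When signals under 50 were set to 50, ZNF177 and an unnamed probe set passed, at an adjusted p of 0.0179.

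For the eye that drives a layer, 0 interactions passed (smallest adjusted p 0.492; 3399 at an unadjusted p under 0.05). This term sets layer 6 against layer 4 (crossed) beside layer 5 against layer 3 (uncrossed). VEZT, a protein of adherens junctions, averaged 678 ± 86.1 in outer and 922 ± 70.7 in inner crossed layers, and 1054 ± 100 in outer and 665 ± 98.6 in inner uncrossed layers (SD, n = 4 each; adjusted p = 0.492). MIS12, a kinetochore protein, had 4237 ± 494 in outer and 2959 ± 1046 in inner crossed layers, and 2461 ± 383 in outer and 4102 ± 930 in inner uncrossed layers (SD, n = 4 each). In these 2 genes layers 6 and 3 had like values, as did layers 5 and 4. A choice by this interaction brings such a pattern with it, so that it is a description and supports nothing.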

How the data were processed

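The authors hybridized RNA from each LCM layer, pooled from sections and amplified in 2 rounds with T7 polymerase, to the Rhesus Macaque Genome Array. The deposited values are linear signal intensities that the authors computed with GCOS, with a trimmed mean of 500.04 on every array. Of 52865 probe sets, 99 controls were left out. The platform table gave 1 symbol to 24956 probe sets, several to 361 and none to 27449.

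Signals under 1 were set to 1 before log2. Probe sets with 100 or more in at least 1 of 24 arrays were tested (37623, of which 19931 had 1 symbol). Outer and inner layers were compared with limma 3.58.1 (statmod 1.5.0) in R 4.3.3 with LGN as a fixed block, deprivation status as a covariate and a trend in eBayes. P-values were adjusted by Benjamini and Hochberg over all probe sets, with a threshold of 0.05. Array measures were compared by an exact permutation test over swaps within same-eye pairs. Log2 differences are outer minus inner. The script was tested on simulated data.

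Named genes are the 10 with the smallest p in each direction (as described in the report) and defining markers. Up to 2 genes a list with the smallest p are also named, and 5 genes per interaction, of which 5 in all are described. The interaction genes had the smallest p among probe sets with a gene symbol and a minimum mean signal, not among all probe sets. A list uses the brightest probe set of a gene. Members and lists were chosen with earlier results of these data known. Replicates are layers of 2 animals, whose number limits the precision. The layers of an LGN are paired by anatomy, and the block is in every fit unless stated. Alternatives in scaling, floor, filter, block, covariates, subsets and samples are in the closing section.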

Additional observations from a re-analysis of the deposited data

Results flagged for a closer look

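In 4 genes the highest of the 8 outer arrays stood apart from the rest by Dixon's ratio, and in all 4 it was layer 6 of the contralateral LGN at 2 months, a deprived layer. HPCAL1, a neuronal calcium sensor, read 2811 there and at most 1164 in the other outer arrays. RGMA read 1257 there and at most 709.5 elsewhere in outer layers, TIMP2, an inhibitor of matrix proteases, 335.3 and at most 156, and KCNC4 592.3 and at most 436. Without this array the log2 differences of outer and inner layers were -0.54 for HPCAL1, -0.53 for RGMA, -0.62 for TIMP2 and -0.43 for KCNC4 (limma, adjusted p = 0.277 each). With it they were -0.40 for HPCAL1, -0.42 for RGMA, -0.49 for TIMP2 and -0.39 for KCNC4. Of 124 groups of 8 values examined, 4 stood apart, and chance alone gives about 1 in 20. The same array had the highest detected share of the outer arrays, 46.5%.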

How the results depend on the processing

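Under 39 alternatives the count of probe sets that differed between outer and inner layers at an adjusted p under 0.05 was 0 to 1: without outer parvocellular replicate 4 (layer 6, contralateral LGN, 2 months) it was 1, and 0 in every other, including the fit with no replicate block, in which the animal took the place of the LGN, and the fit with LGN as a random block. Without outer parvocellular replicate 4, the unnamed probe set MmugDNA.28171.1.S1_at had a log2 difference of -0.83 (adjusted p = 0.0339 from limma). Leaving out any other array or LGN gave 0 calls. The interaction with the animal gave 2 calls with signals under 50 set to 50, ZNF177 (-1.16) and an unnamed probe set (2.03), and 1 call with no trend in eBayes, another unnamed probe set; the cause was not tested. Interactions with deprivation and eye gave 0 calls under 8 alternatives each. The 20 highest ranked genes kept their direction in 780 of 780 values, and the smallest adjusted p among these was 0.19. They were chosen by this contrast with 1 direction in 4 of 4 LGNs, so that the count is a description and supports nothing.

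Markers with differences near 0 changed sign. MBP became 0.019 after quantile normalization, 0.20 with equal medians, 0.0086 with the GAPDH ratio, 0.16 in deprived layers alone, 0.082 at 2 months alone and 0.13 with the detected share. GFAP became -0.023 after quantile normalization, -0.025 in deprived layers alone and -0.14 at 2 months alone. NEFH became 0.19 with equal medians, 0.17 in deprived layers alone, 0.12 at 2 months alone and 0.022 with the detected share. HBB became 0.087 after quantile normalization, 0.060 with equal medians, 0.42 in deprived layers alone and 0.50 with the detected share. CRH became 0.14 with equal medians and 0.023 in nondeprived layers alone, and PVALB -0.20 in nondeprived layers alone and -0.11 at 4 months alone. With 1 array or 1 LGN left out, MBP ranged from -0.068 to 0.071, GFAP from -0.18 to 0.24, NEFH from -0.069 to 0.085, HBB from -0.37 to 0.0073 and CRH from -0.18 to 0.062. All of these had an adjusted p of 0.343 or more. For dim probe sets the signal over background limits what can be read.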

Other observations

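Matrix and Wnt genes were measured in the same way. Of 43 genes of extracellular matrix and perineuronal nets, 10 were positive and 33 negative, with a median log2 difference between outer and inner layers of -0.17 as deposited, -0.04 after quantile normalization and 0.04 with equal medians; 0 were called in limma and 5 had an unadjusted p under 0.05, all negative, beside 7.86% of all probe sets that were lower at that threshold. Of 36 genes of Wnt, R-spondin and BMP signaling, 11 were positive and 25 negative, with a median of -0.13 as deposited and 0.08 with equal medians. The 13 measured genes of retinoic acid signaling had a median of -0.09, with -0.09 and -0.34 in the ipsilateral and contralateral LGN at 2 months and -0.475 and 0.32 in those at 4 months.

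The 6 probe sets whose outer and inner arrays did not overlap all read lower in outer layers, and all had outer medians below 100. Beside FMOD only NHLRC2 has a symbol, with 30.7, 37.8 and 49.6 in outer and 50.2, 94.4 and 105.7 in inner layers (lowest, median and highest; log2 difference -0.98, adjusted p = 0.521 from limma). It was named after its values were seen. Another, brighter NHLRC2 probe set had a log2 difference of 0.21. With the detected share of the arrays as a covariate, FMOD had a log2 difference of -0.67 (unadjusted p = 0.0251, adjusted p = 1.0 from limma).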
